A study of Spodoptera frugiperda with 18 samples.

Results

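The miRNAs described here are those of the fall armyworm, Spodoptera frugiperda, whose names begin with sfr-miR-104 or sfr-miR-105 and hold 2 more digits. They were taken by name from a table of small RNA counts, both arms of each hairpin included, and sfr-miR-10505 was left out. The table has 73 such rows, and merging rows identical in sequence and in counts left 71 members among 660 rows in all. The study followed miRNA levels from egg to adult, with 1 library for each of 18 stages, sexes and ages. The libraries are 1 of the egg, 1 of each larval instar 1 to 6, 1 of the prepupa, 1 of female pupae and 1 of male pupae on each of days 1, 4 and 7, and 1 of adult females and 1 of adult males on each of days 1 and 4. No strain, diet, treatment or body part is given in the labels, nor how many animals went into a library. The replicates of a life stage are therefore its libraries of unlike instar, age or sex, and p-values measure the spread between these libraries.

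A miRNA is cut from the stem of a hairpin transcript, and each hairpin can release a 5p arm and a 3p arm. The arm that is loaded into an Argonaute protein guides it to messenger RNAs, mostly through bases 2 to 8, the seed, so that miRNAs with 1 seed are grouped as a family and a base change inside the seed changes which sites pair with it. The sfr- names mark miRNAs that were named in this moth itself, while rows ending in -x, -y or -z carry names from families of other animals, and others are predictions of the authors. The targets and functions of the members are not annotated in the files, and none is given here. In whole-animal or other bulk RNA, fewer cells of a type and less RNA per cell cannot be told apart.

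The members that carry most of the counts are shown first, in the letters of the deposited table, 5′ to 3′, with the seed in capitals. Their seeds all differ from each other.
sfr-miR-10482-5p: tCGGTGAAtgccaacggattt
sfr-miR-10458-3p: cCTAAAACatgtatccggctca
sfr-miR-10483-5p: cCTGTAATtgttcgttccctt
sfr-miR-10491-5p: gTGCTCACatgtgaaccagg
sfr-miR-10485-5p: aCAGTCTAcccggacaggccg
sfr-miR-10480-3p: tAATGTCActttgacagcaaacc
sfr-miR-10498-5p: tTGGTCAAcgttcaacacagca
sfr-miR-10472-5p: tAGAAGCTgtgatttttcgatatc

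A second set is shown because pairs of members differ by a single base. Positions are counted from 1 at the 5′ end, and a change names the base of the first sequence, its position and the base of the second. The change from sfr-miR-10465-2-3p to sfr-miR-10465-3p is G4A and that from sfr-miR-10483-2-3p to sfr-miR-10483-3p is C7T, both inside the seed. The change from sfr-miR-10499a-3p to sfr-miR-10499b-3p is G21A and that from sfr-miR-10499a-5p to sfr-miR-10499b-5p is A10G, both outside it, so each of these pairs shares its seed.
sfr-miR-10465-2-3p: cTGGCTTGtattctcgctgccc
sfr-miR-10465-3p: cTGACTTGtattctcgctgccc
sfr-miR-10483-2-3p: aGGGGCCGaacaattccaga
sfr-miR-10483-3p: aGGGGCTGaacaattccaga
sfr-miR-10499a-3p: cATGGAGTttcaaactcttgga
sfr-miR-10499b-3p: cATGGAGTttcaaactcttgaa
sfr-miR-10499a-5p: cAAGGGTTtaaaactccatac
sfr-miR-10499b-5p: cAAGGGTTtgaaactccataca

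Another set holds members whose counts lay mainly in 1 stage or that moved most between stages, with the longer rows that contain them. The row miR-10466-x adds 2 bases to sfr-miR-10466-5p, and a predicted row adds 2 bases to sfr-miR-10466-3p.
sfr-miR-10466-5p: tATAATTAtcagcaccgtcca
miR-10466-x: tATAATTAtcagcaccgtccaat
sfr-miR-10466-3p: tGAGAGGTgcaggtaattata
predicted 3p row: tGAGAGGTgcaggtaattataat
sfr-miR-10507-5p: tGCAAGTTtattctgtagtggtct
sfr-miR-10460-5p: gAGCCAATgttcgttagtgat
sfr-miR-10489-5p: aATAGATCgacttggacatc
sfr-miR-10455-5p: tTGGTCTCggatgtctttc

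The deposited values are raw counts, and the libraries hold between 230451 (instar 3) and 4808814 (prepupa) counts over all rows. Levels are given as CPM, the count scaled to a common library total of 1000000. The larval libraries are shallow, so that 3 counts correspond to 13.0 CPM in instar 3 and to 0.624 CPM in the prepupa. Labels of sex and stage were checked on other miRNAs. The miR-989-z row, a family known from the insect ovary in Drosophila, had 4724 and 20612 CPM in day 1 and day 4 adult females, against 1.47 and 1.03 CPM in day 1 and day 4 adult males. The let-7-x row, which in Drosophila appears at the larva to pupa transition, ran between 21857 and 35788 CPM in pupae and between 1.42 and 5914 CPM in larvae.

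Together the 71 members made up a small share of every library. It was 1.19% in the egg, with an exact 95% binomial interval of 1.15 to 1.23 that covers counting error only. In instars 1 to 6 it was 0.697%, 0.823%, 0.652%, 0.621%, 0.470% and 0.526%, and in the prepupa 0.738%. Larvae averaged 0.632% ± 0.125 and pupae 0.631% ± 0.153 (SD, n = 6 each), and adults 0.851% ± 0.0563 (SD, n = 4). This order depends on members that have a near copy among other rows: without them the mean share was 0.146% in larvae, 0.0701% in pupae and 0.0725% in adults, and larvae were highest. Leaving them out also removes leading members whose copy is rare, such as sfr-miR-10458-3p with 31673 counts against 32 in its copy. All 4 adult libraries lay above 5 of the 6 pupal and 5 of the 6 larval libraries, and within pupae both sexes were lower on day 7, at 0.475% in females and 0.505% in males, than on day 1, at 0.746% in females and 0.868% in males. These shares are a description and were not tested.

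**Figure D1:**
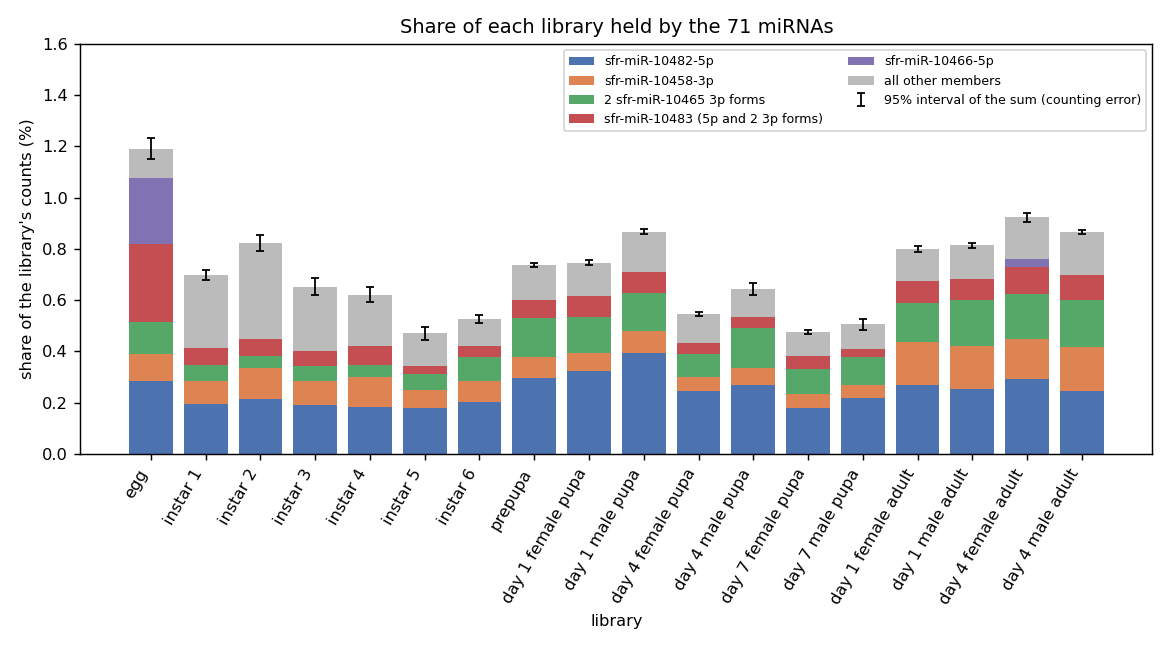
Stacked bars give the share of each library's counts, in percent, held by the members, split into the leading miRNAs and all other members, with libraries in developmental order. Black bars are exact 95% binomial intervals of the sum, and the egg, at 1.19%, stands highest, with wide bands of sfr-miR-10466-5p and the sfr-miR-10483 forms.

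Counts were concentrated in few members. The 5 with most counts (sfr-miR-10482-5p, sfr-miR-10458-3p, sfr-miR-10465-2-3p, sfr-miR-10465-3p and sfr-miR-10483-5p) held 77.2% of the 222459 member counts. By mean level over the 18 libraries, 13 members had at least 100 CPM, 19 had 10 to 100 CPM and 39 were below 10 CPM, 16 of them below 1 CPM. A total of 24 members had a count in all 18 libraries. The members were rarer than the other sfr- rows: their median total was 138 counts, against 6842 for 61 other sfr- rows, 232 for 351 family-named rows and 128 for 177 predicted rows. Their first base was T in 35.2% (25 of 71), against 45.9% of other sfr- rows, 46.2% of family-named rows and 48.6% of predicted rows, a description without a test. Of the 41 members with at least 100 counts, 6 had their highest level in the egg, 16 in a larval library, 3 in the prepupa, 9 in a pupal and 7 in an adult library.

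sfr-miR-10482-5p led the members in all 18 libraries, between 1783 CPM (day 7 female pupa) and 3924 CPM (day 1 male pupa). What came second depended on the stage. It was sfr-miR-10458-3p in every larval and adult library, and in the egg it was sfr-miR-10466-5p with 2582 CPM. In the prepupa and in 5 of the 6 pupal libraries it was sfr-miR-10465-2-3p, and in the day 4 male pupa it was the single-base variant sfr-miR-10465-3p.

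**Figure D2:**
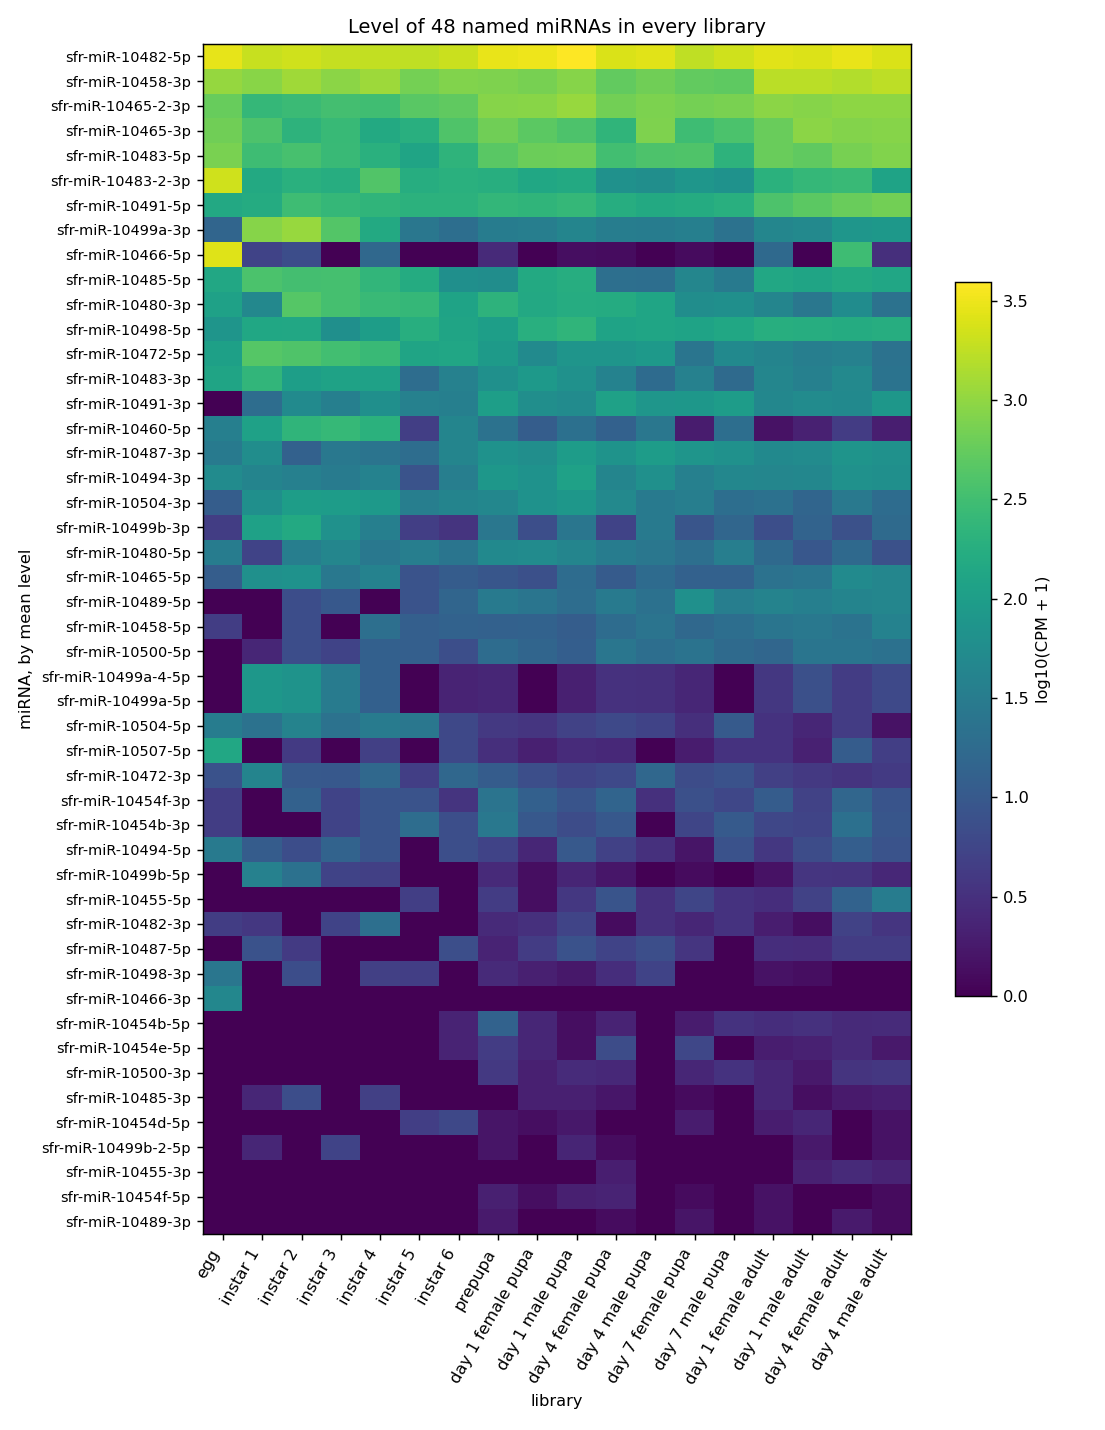
Each row is 1 of the 48 members singled out by the naming rule, ordered by mean level, and each column a library; colour gives log10(CPM + 1). sfr-miR-10482-5p is bright in all 18 columns, sfr-miR-10466-5p is bright in the egg and the day 4 female adult, and the miR-10499 rows are bright in instars 1 to 3.

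Pupae differed from larvae in 13 of the 31 members tested by edgeR's quasi-likelihood test with Benjamini-Hochberg adjustment over all 320 rows tested. Of these, 8 rose and 5 fell in pupae. Over all tested rows 19.4% were called higher and 18.1% lower, so neither count of members stands far from the share in the whole table. The median log2 fold change was 0.30 over the members and -0.01 over all rows. With library totals in place of TMM scaling factors the median of all rows moved to -0.31 and the members split into 5 higher and 6 lower.

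The largest rise was that of sfr-miR-10489-5p. Its lowest, median and highest levels were 18.4, 26.3 and 63.3 CPM in pupae, against 0, 6.72 and 13.8 CPM in larvae. The groups did not overlap. The log2 fold change was 2.52 ± 0.77 SE (edgeR adjusted p = 0.0189), over 17 counts in all 6 larval libraries. Without the day 7 female pupa, which stood highest, the pupal mean was 25.1 ± 6.04 CPM (SD, n = 5), against 31.5 ± 16.5 CPM with it.

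sfr-miR-10465-2-3p is an abundant member whose groups were also apart. It had 671, 760 and 1084 CPM (lowest, median, highest) in pupae and 243, 317 and 515 CPM in larvae, with a log2 fold change of 1.36 ± 0.33 SE (edgeR adjusted p = 0.00560). All 6 pupal libraries lay above all 6 larval ones, and the call held under each of 19 alternatives. sfr-miR-10487-3p behaved alike at a lower level, with 59.1, 70.6 and 97.3 CPM in pupae and 12.1, 24.5 and 56.9 CPM in larvae (log2 fold change 1.57 ± 0.40 SE, edgeR adjusted p = 0.00817).

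The other 5 higher members were sfr-miR-10500-5p, sfr-miR-10491-3p, sfr-miR-10494-3p, sfr-miR-10483-5p and the leading sfr-miR-10482-5p, with log2 fold changes between 0.73 and 1.73. In all 5 the ranges of pupae and larvae overlapped. The calls of sfr-miR-10482-5p, sfr-miR-10483-5p and sfr-miR-10494-3p were lost with library totals in place of TMM factors (adjusted p = 0.0884, 0.0646 and 0.0801 by edgeR), and that of sfr-miR-10482-5p also with counts thinned to the depth of the shallowest library (0.0694).

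Among the falls, sfr-miR-10472-5p had the smallest adjusted p. It had 23.9, 62.2 and 86.8 CPM (lowest, median, highest) in pupae and 126, 293 and 439 CPM in larvae. Every pupal library lay below every larval one, with a log2 fold change of -1.84 ± 0.33 SE (edgeR adjusted p = 0.000701). The other arm of the same hairpin, sfr-miR-10472-3p, had 7.27 ± 3.80 CPM in pupae and 15.5 ± 13.3 CPM in larvae (SD, n = 6 each). It fell under the limit of a mean of 10 counts and was not tested between these stages.

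sfr-miR-10499a-3p fell most, to 21.5, 33.4 and 41.7 CPM (lowest, median, highest) in pupae, against 18.8, 292 and 1111 CPM in larvae. The ranges overlap through instars 5 and 6, which had 25.9 and 18.8 CPM. The log2 fold change was -3.19 ± 0.72 SE (edgeR adjusted p = 0.00375). Without instar 2, the highest, the larval mean was 301 ± 362 CPM (SD, n = 5), against 436 ± 463 CPM with it.

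sfr-miR-10460-5p had 0.864, 15.6 and 25.4 CPM in pupae and 3.70, 155 and 252 CPM in larvae (log2 fold change -2.82 ± 0.78 SE, edgeR adjusted p = 0.0117). Here instar 5, with 1 count, was the only larval library within the pupal range. The remaining 2 falls, sfr-miR-10485-5p (log2 fold change -1.45 ± 0.51 SE, edgeR adjusted p = 0.0364) and sfr-miR-10483-2-3p (-0.95 ± 0.34 SE, edgeR adjusted p = 0.0387), stood near the threshold. sfr-miR-10485-5p lost its call without any 1 of instars 1, 2, 3 and 4, of the day 4 pupae or of the day 7 pupae, and sfr-miR-10483-2-3p without any 1 of instars 2, 4 and 6, of the day 1 male, the day 4 or the day 7 pupae (highest adjusted p over all alternatives 0.114 and 0.190 by edgeR).

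Adults differed from pupae in 7 of 31 tested members by the same test. Of these 3 rose and 4 fell, where 11.2% of all 320 rows were called higher and 12.2% lower, so that the members' 7 calls are about the share of the whole table. The median log2 fold change was 0.04 over the members and 0.09 over all rows. The calls were few and depended on single adult libraries: 3 members were called without the day 4 female adult and 4 without the day 4 male adult. With library totals the median of all rows was 0.24, and the members split into 4 higher and 3 lower.

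sfr-miR-10458-3p, the second member by level, had 1692 and 1530 CPM in day 1 and day 4 adult females and 1687 and 1712 CPM in day 1 and day 4 adult males. In pupae it had 508, 600 and 876 CPM (lowest, median, highest). The 4 adult libraries were close to each other and all above the pupae, with a log2 fold change of 1.24 ± 0.23 SE (edgeR adjusted p = 0.00176). The call held under all 17 alternatives run for it.

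sfr-miR-10491-5p had 390 and 584 CPM in day 1 and day 4 adult females, 488 and 679 CPM in day 1 and day 4 adult males, and 152, 176 and 245 CPM (lowest, median, highest) in pupae. Adults and pupae did not overlap (log2 fold change 1.36 ± 0.26 SE, edgeR adjusted p = 0.00212). In both sexes the day 4 adults stood above the day 1 adults, with 1 library each and no test.

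The falls in adults were those of both arms of miR-10480, of sfr-miR-10460-5p and of sfr-miR-10504-3p. sfr-miR-10480-3p had 42.6 and 54.3 CPM in day 1 and day 4 adult females, 25.4 and 21.6 CPM in day 1 and day 4 adult males, and 56.4, 138 and 168 CPM (lowest, median, highest) in pupae (log2 fold change -1.92 ± 0.52 SE, edgeR adjusted p = 0.0142). Its 5p arm had 15.8 and 15.9 CPM in adult females, 8.46 and 6.69 CPM in adult males, and 19.9, 32.1 and 53.7 CPM in pupae (log2 fold change -1.72 ± 0.54 SE, edgeR adjusted p = 0.0287). For both arms all adult libraries lay below all pupal ones, and in adults the females lay above the males at both ages.

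The calls of these falls rested on single libraries. The call of sfr-miR-10480-3p was lost without the day 4 female or without the day 4 male adult (adjusted p = 0.0541 and 0.0538 by edgeR), and that of sfr-miR-10480-5p without either of these or without the day 1 male adult (up to 0.0916). The call of sfr-miR-10460-5p (log2 fold change -3.44 ± 0.97 SE, edgeR adjusted p = 0.0178) was lost without the day 1 female or the day 4 male adult. sfr-miR-10504-3p (-1.35 ± 0.41 SE, edgeR adjusted p = 0.0243) lost its call without the day 1 male pupa or without any 1 of the 4 adult libraries, with adjusted p up to 0.125 over the alternatives.

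Adults against larvae gave 14 calls in 31 tested members, 9 higher and 5 lower. Over all 320 rows 17.5% were higher and 15.6% lower, and the median log2 fold change was 0.59 over the members and 0.09 over all rows. This comparison shares its adult libraries with adults against pupae and its larval libraries with pupae against larvae, so the calls are given beside those and are not a further check of them.

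Among the higher members, sfr-miR-10483-5p had 595 and 718 CPM in day 1 and day 4 adult females and 522 and 830 CPM in day 1 and day 4 adult males, against 126, 243 and 356 CPM (lowest, median, highest) in larvae (log2 fold change 1.63 ± 0.31 SE, edgeR adjusted p = 0.00142). sfr-miR-10465-3p had 587 and 837 CPM in adult females and 939 and 878 CPM in adult males, against 154, 236 and 404 CPM in larvae (1.69 ± 0.42 SE, edgeR adjusted p = 0.00740). In both, each adult library lay above each larval one. The same was true of sfr-miR-10465-2-3p, sfr-miR-10458-3p, sfr-miR-10491-5p, sfr-miR-10489-5p and sfr-miR-10500-5p, whose log2 fold changes lay between 0.97 and 2.63.

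sfr-miR-10460-5p was the member with the largest fall in adults. It had 1, 4, 3 and 4 counts in the day 1 female, day 4 female, day 1 male and day 4 male adult, which is 0.479, 3.34, 1.10 and 1.03 CPM. In larvae it had 3.70, 155 and 252 CPM (lowest, median, highest), and no larval library was as low as an adult one. The lowest larval level is 1 count, in instar 5, so its gap to the 3.34 CPM of the day 4 female adult rests on 1 read. The log2 fold change was -6.27 ± 1.10 SE (edgeR adjusted p = 0.00110). In pooled counts the 12 adult and 298 larval counts give an adult level that is 0.0106 of the larval one (exact 95% interval 0.00539 to 0.0187, counting error only).

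sfr-miR-10472-5p was lower still in adults than in pupae by its means, 33.0 ± 8.22 CPM (SD, n = 4) against 281 ± 133 CPM in larvae (SD, n = 6). Its log2 fold change was -2.84 ± 0.40 SE (edgeR adjusted p = 0.000290). sfr-miR-10480-3p had a log2 fold change of -2.60 ± 0.53 (SE), with the larval range of 46.9 to 438 CPM reaching down into that of adults through instar 1. sfr-miR-10499a-3p and sfr-miR-10504-3p also fell, but the call of sfr-miR-10499a-3p was lost without instar 1 or 2 or without any 1 of the 4 adult libraries, and that of sfr-miR-10504-3p without the day 4 female adult.

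sfr-miR-10455-5p was a rare member that was higher in adults than in larvae. It had 1.92 and 12.5 CPM (4 and 15 counts) in day 1 and day 4 adult females, and 4.05 and 30.9 CPM (11 and 120 counts) in day 1 and day 4 adult males. In larvae it had a single count, in instar 5. It was also read in the prepupa, at 3.33 CPM, and in pupae, where the day 4 and day 7 females had 7.47 and 4.61 CPM, and adults against pupae was not called (adjusted p = 0.174 by edgeR). The log2 fold change of adults over larvae was 4.72 ± 1.21 SE (edgeR adjusted p = 0.00795), and the pooled counts give a ratio of 39.3 with an exact 95% interval of 6.95 to 1564. Without the day 4 male adult it fell under the limit of a mean of 10 counts and could not be tested, and the adult mean was 6.16 ± 5.61 CPM (SD, n = 3), against 12.3 ± 13.2 CPM with it.

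**Figure D3:**
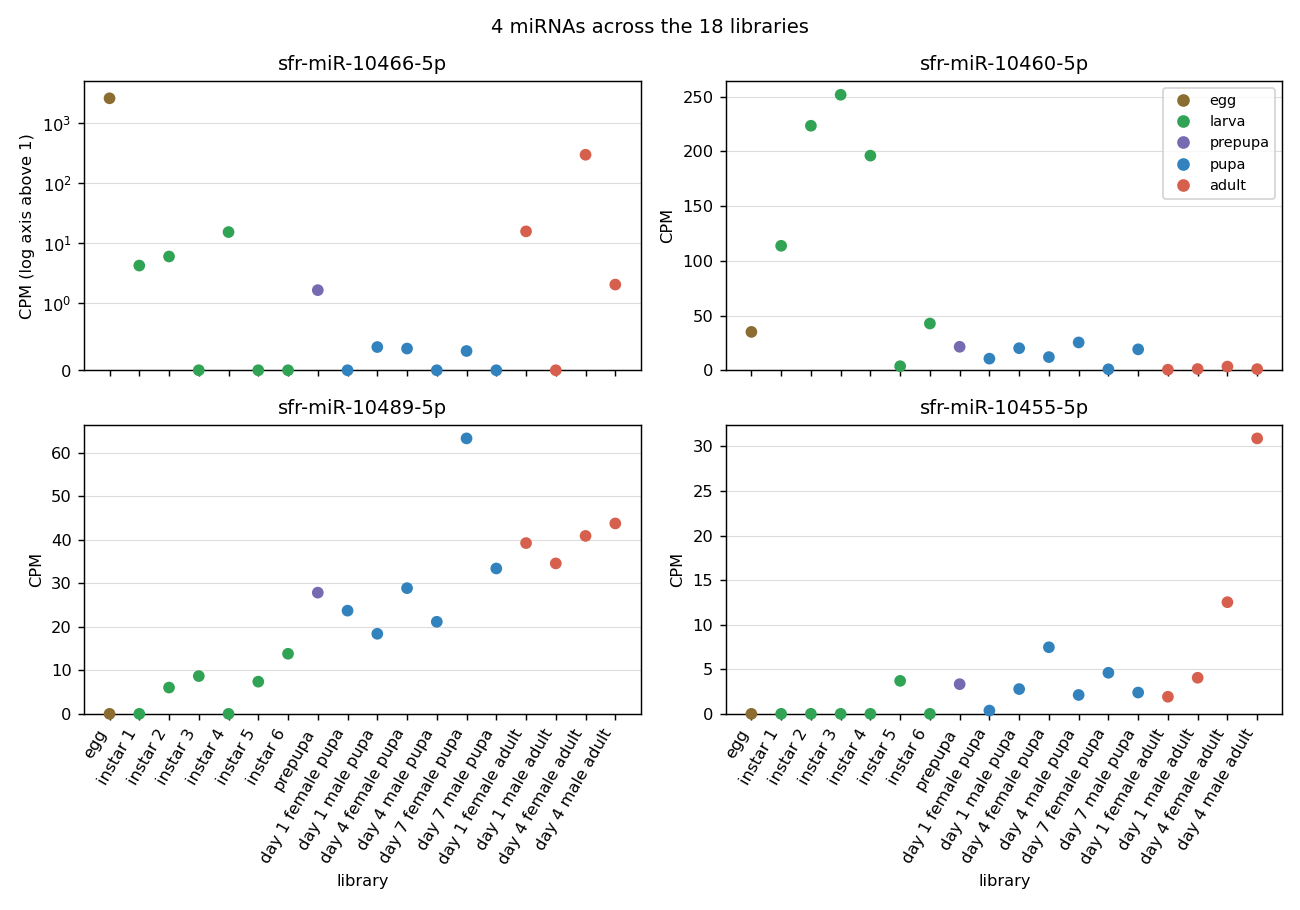
Points give the level in CPM of 4 members in each library, coloured by stage; the axis of sfr-miR-10466-5p is logarithmic above 1. sfr-miR-10466-5p is highest in the egg with 2582 CPM and next in the day 4 female adult with 297 CPM, sfr-miR-10460-5p is highest in instars 1 to 4, sfr-miR-10489-5p is above the larval levels in all pupae and adults, and sfr-miR-10455-5p is highest in the day 4 male adult.

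Across the instars, 7 of 22 tested members had a falling trend and 0 a rising one, in a fit of edgeR with instar number as a linear term over the 6 larval libraries. The 7 include sfr-miR-10499a-5p and sfr-miR-10499a-4-5p, which have the same count in every library and are not separate results. Over all 234 rows tested, 10.7% had a rising and 18.4% a falling trend. The median slope was -0.11 log2 units per instar over the members and -0.01 over all rows. The count rests on single libraries, since 2 members were called without instar 1, where 3 of the 7 could not be tested, and 4 without instar 2, without instar 3 or without instar 5. With instars 5 and 6 set against instars 1 to 4 in place of the trend, none of the 234 rows was called by edgeR. An unadjusted p under 0.05 was found in 10 of the 22 members and in 72 of all 234 rows. The DESeq2 Wald test of the trend called 8 members falling and 1 rising, where over all 234 rows it called 50 falling and 55 rising.

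Of the 7 trends, 4 belong to the miR-10499 rows. In instars 1 to 6 sfr-miR-10499a-3p had 876, 1111, 430, 154, 25.9 and 18.8 CPM. Its level is therefore highest in instar 2 and falls at each later instar. The slope was -1.25 ± 0.17 log2 units per instar (SE, edgeR adjusted p = 0.00472). For instar 1 over instar 5, 616 and 7 counts give a ratio of 33.8 (exact 95% interval 16.3 to 84.5, counting error only).

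The related rows took a like course at lower levels. sfr-miR-10499b-3p, which shares the seed ATGGAGT, had 114, 151, 65.1, 34.6, 3.70 and 2.51 CPM in instars 1 to 6 (slope -1.14 ± 0.22 SE, edgeR adjusted p = 0.0116). sfr-miR-10499a-5p, with the seed AAGGGTT, had 78.2, 69.4, 30.4, 11.5, 0 and 1.26 CPM (slope -1.23 ± 0.23 SE, edgeR adjusted p = 0.00997). sfr-miR-10499a-4-5p has 1 base more at its 3′ end and the same count in every library, so its call is not a separate one. These 4 calls were lost where 2 instars were set against 4, with an adjusted p of 0.0938 by edgeR for each, and held in the other alternatives in which the row was tested. The 2 5p rows could not be tested without instar 1 or with thinned counts, for lack of counts, so their calls have no check without the instar that holds 55 of their 89 larval counts.

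The miR-10499 rows were low outside the larval instars, and lower in instars 5 and 6 than in any later library. Over the 5 rows counted once each, the sum was 17.5 CPM in the egg and 29.6 and 22.6 CPM in instars 5 and 6. It was 60.3 CPM in the prepupa and ran between 35.8 and 70.1 CPM in pupae. It was then 53.1 and 89.3 CPM in day 1 and day 4 adult females and 70.3 and 104 CPM in day 1 and day 4 adult males. In instar 2 it was 1352 CPM. The balance of the 3p pair also moved: sfr-miR-10499a-3p was 88.5% of both 3p rows in instar 1 (exact 95% interval 85.9 to 90.8) and 55.1% in the prepupa (49.0 to 61.2).

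**Figure D4:**
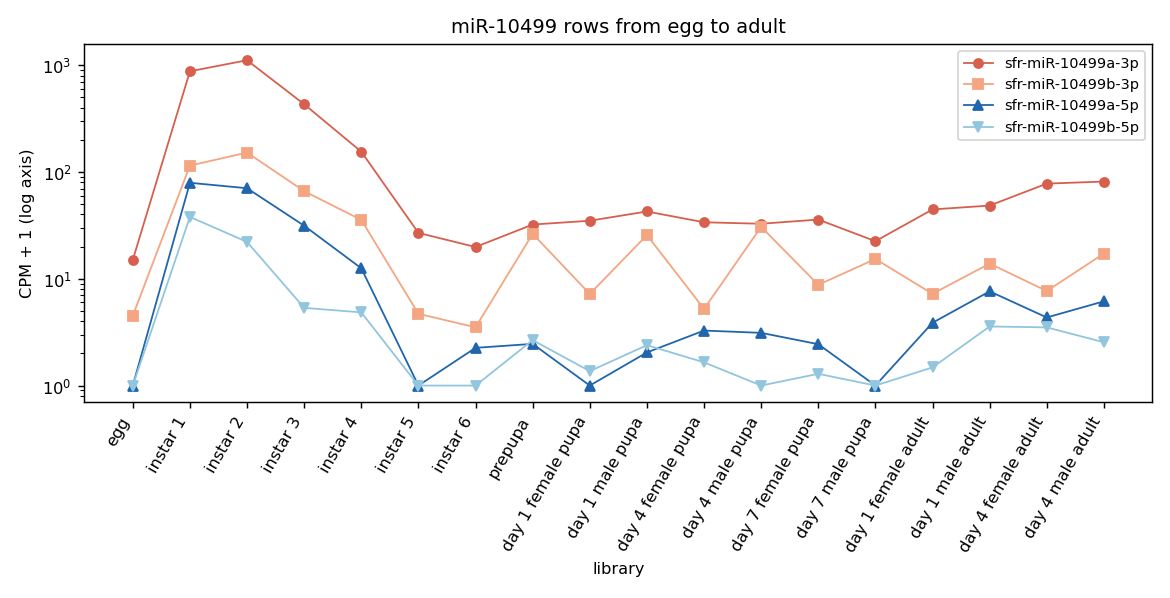
Lines give CPM + 1 of 4 miR-10499 rows in each library on a logarithmic axis, with libraries in developmental order. All 4 are highest in instar 1 or 2 and drop until instar 5; sfr-miR-10499b-3p stands higher in males than in females at every pupal and adult age.

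The other falling trends were smaller. sfr-miR-10472-5p had 439, 404, 317, 269, 126 and 132 CPM in instars 1 to 6 (slope -0.34 ± 0.08 SE, edgeR adjusted p = 0.0208). sfr-miR-10485-5p had 375, 329, 338, 235, 163 and 61.5 CPM (slope -0.40 ± 0.11 SE, edgeR adjusted p = 0.0401), and sfr-miR-10465-5p had 62.5, 66.4, 26.0, 38.4, 7.40 and 10.04 CPM (slope -0.54 ± 0.16 SE, edgeR adjusted p = 0.0451). None of these was firm: the call of sfr-miR-10485-5p was lost without any 1 of the 6 instars, that of sfr-miR-10472-5p without any 1 but instar 6, and that of sfr-miR-10465-5p without any 1 of instars 2 to 6 (without instar 1 it fell under the limit of a mean of 10 counts and was not tested), with adjusted p up to 0.161, 0.113 and 0.122 over the alternatives.

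The egg was set apart by sfr-miR-10466-5p. It had 737 counts there, or 2582 CPM, and 88.3% of its level summed over the 18 libraries lay in that library. The 6 larval libraries held 9 counts in all, the prepupa 8 and the 6 pupal libraries 3. Adult females had 15.8 CPM (33 counts) on day 1 and 297 CPM (356 counts) on day 4, against 0 and 2.06 CPM (0 and 8 counts) in day 1 and day 4 adult males. The day 4 adult female was thus second to the egg, and no pupal library had more than 1 count, at depths of up to 3473742 counts.

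The related rows were also read mainly in the egg. sfr-miR-10466-3p had 13 counts, all in the egg. The longer predicted 3p row had 219 counts in the egg and 68 in the day 4 female adult, out of 295, and miR-10466-x had 17 of its 19 counts in the egg. In the fit, sfr-miR-10466-5p was higher in adults than in pupae, with a log2 fold change of 7.72 ± 1.67 SE (edgeR adjusted p = 0.00437), and 397 against 3 pooled counts give a ratio of 175 (exact 95% interval 59.4 to 851). It was also higher in adults than in larvae (4.32 ± 1.44 SE, edgeR adjusted p = 0.0308), a call lost without any 1 of instars 1, 2, 3, 5 and 6. Without the day 4 female adult it could not be tested for lack of counts, and the adult mean was 5.95 ± 8.59 CPM (SD, n = 3), against 78.8 ± 146 CPM with it.

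Other egg-weighted members were sfr-miR-10507-5p and sfr-miR-10483-2-3p. sfr-miR-10507-5p had 144 CPM (41 counts) in the egg and was next highest in the day 4 female adult, with 12 counts. sfr-miR-10483-2-3p had 2189 CPM (625 counts) in the egg, 43.3% of its summed level, and next to that 419 CPM in instar 4. The egg has 1 library, so these are levels without a test.

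Sexes were compared over the 5 pairs of female and male libraries of 1 age. Of 33 tested members none was called by edgeR, where 0.581% of 344 rows were called over the whole table. There were 5 members with an unadjusted p under 0.05, and 42 such rows among all 344. The DESeq2 Wald test called 1 member, sfr-miR-10499b-3p (lower in females), where it called 6 rows higher and 15 lower over the whole table. Without the filter on low counts edgeR called 1 member, sfr-miR-10466-5p (higher in females), where it called 5 higher and 11 lower among 653 rows.

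sfr-miR-10499b-3p had 6.21, 4.22 and 7.77 CPM in day 1, day 4 and day 7 female pupae, against 24.7, 29.6 and 14.3 CPM in male pupae of these ages. Adult females had 6.22 and 6.68 CPM on days 1 and 4, against 12.9 and 16.2 CPM in adult males. Females were lower in 5 of 5 pairs and the groups did not overlap, but the log2 fold change of -1.39 ± 0.41 (SE) did not pass (adjusted p = 0.203 by edgeR, and 0.00472 to 0.522 over the alternatives). The near copy sfr-miR-10499a-3p had 33.9, 32.8 and 34.8 CPM in day 1, day 4 and day 7 female pupae, against 41.7, 31.7 and 21.5 CPM in male pupae. In adults it had 43.6 and 76.8 CPM in females on days 1 and 4, against 47.5 and 80.3 CPM in males, so that females were lower in 3 of 5 pairs.

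For sfr-miR-10466-5p the log2 fold change of females over males was 5.83 ± 1.42 SE (edgeR adjusted p = 0.120, 0.00565 to 0.577 over the alternatives). Its call appeared without the day 1 female pupa or without the day 1 male pupa. A change of the sex difference from pupae to adults was called for none of the 33 members by edgeR, where 3.2% of 344 rows were called. The median of all rows in that difference was -0.35 with TMM factors and 0.36 with library totals, so the direction of a small difference depends on the scaling. There were 3 members with an unadjusted p under 0.05, and 63 such rows among all 344. The DESeq2 Wald test called 1 member, sfr-miR-10466-5p, where over the whole table it called 33 positive and 7 negative changes.

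The single-base pairs allow a comparison of near-identical rows within a library, although reads of 1 form could have been counted under the other. Of the counts of both miR-10465 3p forms, sfr-miR-10465-2-3p made up between 38.9% (instar 1, exact 95% interval 34.3 to 43.6) and 75.2% (day 4 female pupa, 73.6 to 76.8), with a median of 57.4% over the 18 libraries. The share was 64.5%, 75.2% and 70.4% in female pupae on days 1, 4 and 7 and 73.5%, 49.1% and 67.0% in male pupae. In day 1 and day 4 adults it was 61.4% and 53.2% in females and 47.8% and 51.9% in males. Neither of these rows was dominant throughout, and the day 4 male pupa stood apart from the other pupae. The shares leave out miR-10465-y, which contains sfr-miR-10465-2-3p and has the same seed, TGGCTTG. That row had 107 counts in the egg, 133 in instar 1, 124 in the day 4 male pupa and 862 in the day 1 male adult. Counted with sfr-miR-10465-2-3p, it puts this seed ahead of that of sfr-miR-10465-3p in these libraries too.

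For the miR-10483 3p forms, sfr-miR-10483-2-3p made up 94.7% in the egg (exact 95% interval 92.7 to 96.3), where 625 and 35 counts were seen, and 39.3% in instar 1 (33.4 to 45.4), where 106 and 164 counts were seen. In adults it lay between 82.1% and 87.5%. The form with the seed GGGGCCG therefore outnumbered that with GGGGCTG in every library except instar 1.

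**Figure D5:**
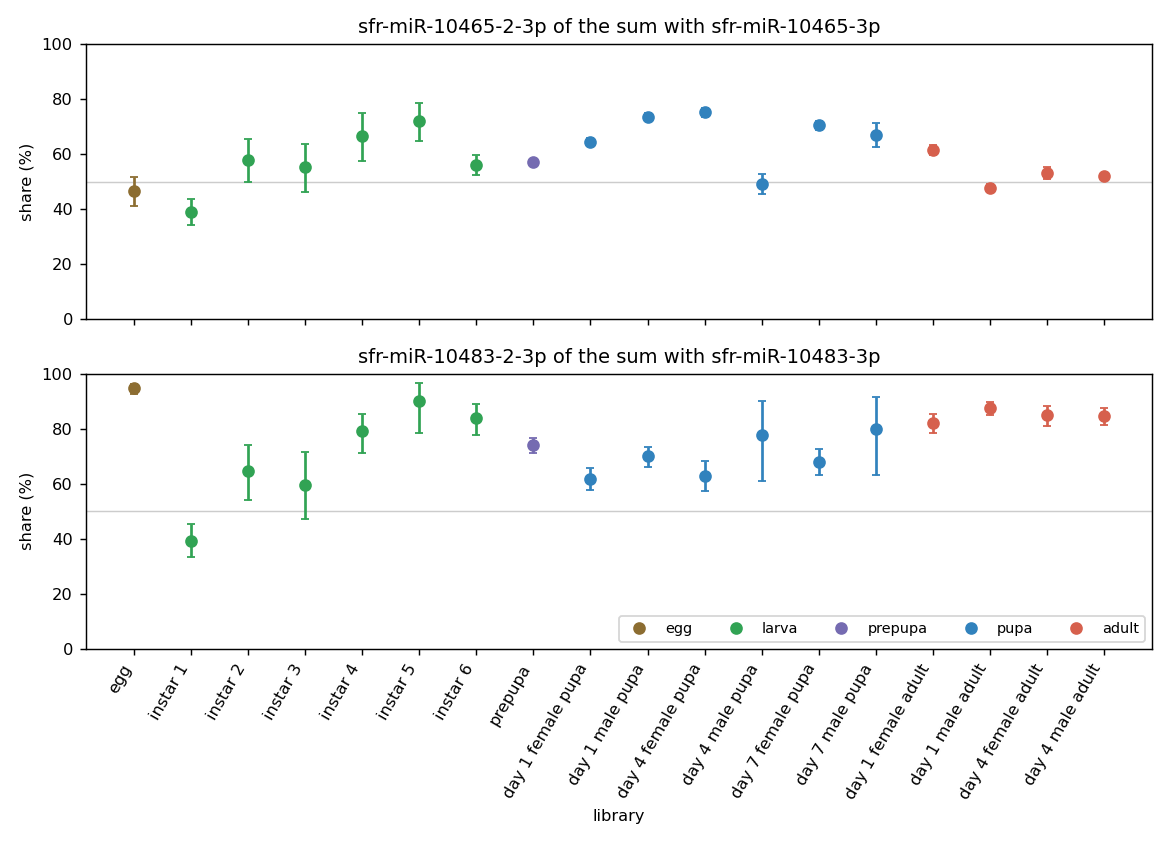
Points give the share, in percent, of the form with -2- in its name among the counts of both forms of a pair in each library, with exact 95% binomial intervals and colours for stages. In both panels instar 1 is the lowest library, at 38.9% and 39.3%, and the egg is highest for miR-10483, at 94.7%.

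Some members have close relatives under other names that hold more of the reads. sfr-miR-10491-3p had 2206 counts, while the family-named row miR-10491-y, which is 1 base longer and differs by C14T, had 832933. The member's share of both never passed 0.468%.
sfr-miR-10491-3p: cTGATTAAcatgtcagtacac
miR-10491-y: cTGATTAAcatgttagtacacc
The seed is shared, so a level of sfr-miR-10491-3p is not the level of its seed family. The pupal rise above was measured on the rarer row alone. Over the 18 libraries the levels of both rows had a Pearson correlation of 0.837 on log2(CPM + 1). Whether they move separately was not tested. In total 37 members have a near copy, that is, no more than 2 mismatches within an alignment of 18 bases or longer, and in 25 of them such a copy lies outside the members.

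The leading member has a relative that moved on its own. The row miR-10482-x contains sfr-miR-10482-5p and adds 2 bases at the 3′ end. Its share of both was 6.67% in the egg and 48.6% in instar 1, then between 11.1% and 22.5% in instars 2 to 6, 13.2% to 15.8% in pupae and 21.5% to 24.7% in adults. In instar 1 that row had 1824 CPM, close to the 1932 CPM of sfr-miR-10482-5p.
sfr-miR-10482-5p: tCGGTGAAtgccaacggattt
miR-10482-x: tCGGTGAAtgccaacggatttct

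Both arms were listed for 25 hairpins. Over all libraries 12 gave more than 80% of their counts from the 5p arm, 10 gave more than 80% from the 3p arm, and 3 lay between. Where an arm had several forms, only the form without a copy number was counted. The 12 thus include sfr-miR-10483, with 15970 counts in 5p and 1639 in sfr-miR-10483-3p. Its main 3p form, sfr-miR-10483-2-3p with 5228 counts, was left out, and with it the 5p share would not pass 80%. Near copies outside the members were not counted either. For sfr-miR-10491, also among the 12, the 5p arm had 9761 counts, against 832933 in miR-10491-y, the near copy of its 3p arm. For sfr-miR-10466, another of the 12, the 3p arm had 13 counts and the predicted row that contains it 295. With that row its 5p share would not pass 80%. sfr-miR-10482-5p was 99.9% of both arms, sfr-miR-10458-3p the side with nearly all counts of its hairpin (5p share 1.76%), and sfr-miR-10485-5p 99.4%.

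The balance of the arms moved most between libraries in miR-10483 and miR-10491, with an SD of the 5p share of 11.4 and 11.1 percentage points over the 18 libraries. The 5p share of sfr-miR-10483 ran from 56.4% (instar 1, exact 95% interval 51.2 to 61.5) to 97.4% (day 4 male adult, 96.8 to 97.9), with the 3p form without -2- as the other arm. That share leaves out the more abundant sfr-miR-10483-2-3p. In the egg the 5p arm had 209 counts and sfr-miR-10483-2-3p 625. In instar 4 they had 50 and 109, and in instar 5 they had 34 and 46. Both 3p forms together also exceeded the 5p arm in instar 1 (270 against 212 counts), instar 3 (67 against 63) and instar 6 (180 against 170). The 5p arm was therefore not dominant in these libraries. For sfr-miR-10491 it was 100% in the egg (42 of 42 counts), 60.02% to 66.9% in pupae of days 4 and 7 and 89.5% to 92.1% in adults. That arm balance leaves out the far more abundant miR-10491-y.

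Sequence features of the arm pairs varied. In a mature duplex the arms pair over most of their length with mismatches and an overhang at each 3′ end. The longest perfectly complementary run between the arms had a median of 8 bases over the 25 hairpins and reached 20 in sfr-miR-10489, whose 5p arm is complementary to its 3p arm along its whole length.
sfr-miR-10489-5p: aATAGATCgacttggacatc
sfr-miR-10489-3p: cGATGTCCaagtcgatctatt
The arms of sfr-miR-10500 instead shared 9 bases on the same strand, the end of the 3p row being the start of the 5p row, which no other of the 25 pairs did.
sfr-miR-10500-5p: tGTTCGGGcatgtattcgtc
sfr-miR-10500-3p: aTAAGGAAgtgtgttcgggc

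The 23 members that the naming rule did not single out had mean levels between 0.202 and 20.2 CPM and between 11 and 608 counts in all. Only 3 of them passed the limit of a mean of 10 counts for the tests between life stages. None was called, which the naming rule itself fixes, since it singles out the called members. The 8 miR-10454 rows, from several related hairpins, were rare throughout. Some of them were highest in other libraries, such as sfr-miR-10454e-5p in the day 4 female pupa, but their sum was highest in the prepupa, at 71.3 CPM. It was 0 to 29.6 CPM in larvae, 2.12 to 31.8 CPM in pupae and 13.6 to 37.6 CPM in adults. The prepupa is also the deepest library and has no second one, so this order was not tested.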

How the data were processed

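The authors deposited raw read counts as a single table, where each row is a named miRNA sequence and each of the 18 libraries is a column. Per the labels' protocols, Trizol RNA went into TruSeq small RNA libraries for Illumina sequencing; the protocol speaks of 9 libraries. How reads were aligned and miRNAs called, and on which build, is not given in the sources used here. No genome was used, so no coordinates are given.

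Rows identical in sequence and in counts were merged to 660, and CPM were computed on the merged totals. The counts were tested with edgeR's quasi-likelihood test (edgeR 4.0.16, limma 3.58.1, R 4.3.3, robust dispersions, TMM factors of 0.748 to 1.42) for rows averaging 10 counts or more in the libraries fitted, with Benjamini-Hochberg adjustment over all tested rows and a threshold of 0.05. Each SE is the log2 fold change divided by the square root of F, an approximation. A single fit of 16 libraries compared larvae, pupae and adults. Sexes were compared over the 10 pupal and adult libraries with a block for age, and the larval trend used instar number over 6 libraries. The egg and prepupa have 1 library each and were described only.

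The members and the lists were chosen with earlier results of these data known. Members named in the text are the 12 with the highest mean CPM, up to 10 called members in each direction of each comparison, members with at least 50% of their summed CPM in 1 library and at least 30 counts there, the highest in each stage, their other arms, and members that share a seed or nearly a sequence with those. This took 48 of the 71.

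Other settings tried were library totals, size factors or the Wald test of DESeq2 (DESeq2 1.42.0), no filter, unmerged rows, counts thinned to 230451 per library, other designs and each library left out in turn. The tests were tested on simulated data. Share intervals are exact 95% binomial intervals, and ratios of pooled counts have exact intervals of the same level; both cover counting error only. Scripts ran in Python 3.11.15 with matplotlib 3.10.9, numpy 2.4.6, scipy 1.17.1 and pandas 2.3.3.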

Additional observations from a re-analysis of the deposited data

Results flagged for a closer look

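Within the larval (n = 6), pupal (n = 6) and adult (n = 4) libraries, the levels of 28 named members and their summed share were looked at for a library far from the others, 87 groups in all. 7 were found, where chance gives about 1 in 20 groups. None of these has an explanation that was tested, and each stands in 1 library.

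In adults, sfr-miR-10466-5p had 297 CPM in the day 4 female adult, against 15.8 CPM in the next library. sfr-miR-10458-3p had 1530 CPM in that same day 4 female adult, below the next at 1687 CPM, and sfr-miR-10465-2-3p had 859 CPM in the day 1 male adult, below the next at 936 CPM. In both of these the other 3 adults lay close together.

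In pupae, sfr-miR-10489-5p had 63.3 CPM in the day 7 female pupa, against 33.4 CPM in the next library. In larvae, sfr-miR-10483-2-3p had 419 CPM (109 counts) in instar 4, against 190 CPM in the next library, and without instar 4 the larval mean was 174 ± 15.6 CPM (SD, n = 5), against 215 ± 101 CPM with it. sfr-miR-10494-3p had 7.40 CPM (2 counts) in instar 5, against 30.4 CPM in the next library. sfr-miR-10455-5p had 3.70 CPM in instar 5, which is 1 count, and 0 counts in the other 5 instars.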

How the results depend on the processing

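No called member changed direction under any alternative run. Of 41 called changes of named members, 19 lost their call under at least 1 alternative and 22 kept it under each in which they were tested. Of these 22, 16 were tested under all alternatives and 6 had too few counts for at least 1, thinned counts in each case; sfr-miR-10466-5p (adults against pupae) also could not be tested without the day 4 female adult and sfr-miR-10455-5p (adults against larvae) without the day 4 male adult. The number of members called rose with the DESeq2 Wald test to 20 for pupae against larvae, 11 for adults against pupae, 1 for females against males and 1 for the change of the sex difference from pupae to adults. That test also called more of all rows. Among 320 rows it called 79 higher and 75 lower for pupae against larvae, and 55 higher and 49 lower for adults against pupae. Among 344 rows it called 6 higher and 15 lower for females against males, and 33 and 7 for the change of the sex difference. The number of members called fell to 4 for adults against pupae with thinned counts, and was 1 for females against males without the filter. With instars 5 and 6 against 1 to 4 it was 0 for the larval trend. Leaving out 1 library gave 3 to 8 members for adults against pupae, 0 to 1 for females against males and 2 to 5 for the larval trend. Members without a near copy among other rows held 0.146% of larval, 0.0701% of pupal and 0.0725% of adult libraries on average. This turns the order of larvae and adults, since the leading members all have such copies, some of them rare, and are left out. How the authors split these reads was not tested. A paired analysis by replicate number was not possible because the labels give no replicate numbers; the age block pairs sexes, and without it no member was called. Larval depth limits what can be seen of rare members, since 3 counts are 13.0 CPM in instar 3.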
